A study of Mus musculus with 14 samples.

Results

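In the medial prefrontal cortex, 8 genes had lower mean signal in defeated mice of both behavioural classes than in naive mice: Aif1l, Mboat1, Prr5l, Myom3, Ston2, Lgi4, Serpinb1a and Rom1. They were chosen by their measured log2 signal in susceptible and in resilient mice against naive mice in these same arrays, so their differences from naive mice are given as a description. Where members are counted past a threshold against naive mice (limma, adjusted p under 0.05), nothing is read from the count. They are 8 of the 14445 genes tested, and 10 of the 55681 probes matched their RefSeq transcripts. The medial prefrontal cortex takes part in the control of mood and social behaviour. During social defeat a mouse is placed repeatedly with an aggressor, and the labels class the defeated mice by behavioural phenotype. The groups were 6 susceptible and 3 resilient mice after repeated social defeat stress, and 5 naive mice that were moved between cages. All 14 were wild-type C57BL/6 mice, perfused under pentobarbital at 4 h after the last session, and no age is given in the labels. Tissue was a 1.5 mm punch, and each 1-colour (Cy3) array received 35 ng of RNA of a single mouse. The study ran independent experiments with different mice, and which mouse belongs to which is not given in the labels.

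The 8 genes are not known as parts of a single pathway. Aif1l encodes a calcium-binding relative of the microglial protein Iba1 that bundles actin, and Myom3 a myomesin of the M-band that cross-links myosin filaments in muscle. Mboat1 encodes an acyltransferase that reattaches fatty acids to lysophospholipids, and Prr5l a binding partner of mTOR complex 2, a kinase complex that acts on Akt. Ston2 encodes stonin 2, an endocytic adaptor that returns synaptotagmin from the cell surface to synaptic vesicles, and Rom1 a tetraspanin of photoreceptor disc rims. Lgi4 encodes a secreted ligand of ADAM22 that Schwann cells use in peripheral nerve myelination, and Serpinb1a an intracellular inhibitor of neutrophil elastase, cathepsin G and proteinase 3. In a bulk punch, fewer cells of a type and less RNA per cell cannot be told apart.

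The promoters of 3 of the 4 members that were past the threshold in both comparisons with naive mice are shown, so that their start regions can be compared; the fourth, Lgi4, was not matched. RefSeq promoter windows (GRCm38.p6) run from 250 bases before to 50 bases after a gene's start. Of the 8 members 6 matched, with 8 windows in all, 3 of them of Prr5l; Serpinb1a was not matched either. The lines below give Aif1l at chr2:31950053-31950352 on the plus strand, Ston2 at chr12:91786387-91786686 on the minus strand and Rom1 at chr19:8929307-8929606 on the minus strand, each 5′ to 3′. Capitals mark a match to the SP/KLF letters CCCCGCCCC on either strand.
Aif1l: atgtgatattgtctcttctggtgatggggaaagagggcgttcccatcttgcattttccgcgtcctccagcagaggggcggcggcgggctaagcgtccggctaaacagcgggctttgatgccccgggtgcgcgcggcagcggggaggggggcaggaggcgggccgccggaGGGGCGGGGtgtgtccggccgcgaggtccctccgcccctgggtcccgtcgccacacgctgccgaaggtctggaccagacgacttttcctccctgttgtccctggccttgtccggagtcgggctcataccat
Ston2: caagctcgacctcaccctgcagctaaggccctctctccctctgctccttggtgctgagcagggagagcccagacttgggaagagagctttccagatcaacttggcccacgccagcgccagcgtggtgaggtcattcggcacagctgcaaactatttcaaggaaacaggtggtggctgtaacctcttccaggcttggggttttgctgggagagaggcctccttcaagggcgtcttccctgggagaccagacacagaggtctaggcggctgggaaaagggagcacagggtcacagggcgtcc
Rom1: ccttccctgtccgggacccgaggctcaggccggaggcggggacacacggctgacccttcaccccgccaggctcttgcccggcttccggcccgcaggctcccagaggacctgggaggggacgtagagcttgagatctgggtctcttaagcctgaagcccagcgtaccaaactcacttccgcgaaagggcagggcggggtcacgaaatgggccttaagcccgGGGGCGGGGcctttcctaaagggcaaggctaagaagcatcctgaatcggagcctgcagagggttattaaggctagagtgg

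The motifs were searched in both strands of the windows. Windows on a chromosome that held none of the 6 matched members were left out, so all promoters means the remaining windows. The SP/KLF letters were found in 2 of the 8 windows (2 of the 6 genes), at -81 in Aif1l and -30 in Rom1, and in 11.4% of all 32851 promoters. The SOX letters ACAAAG, found in 18.7% of all promoters, occurred in 1 gene, in a Prr5l window at -188, and the TATA box letters TATAAA, found in 13.6%, occurred in 1 gene, in a Prr5l window at -246. The glucocorticoid receptor element AGAACA was in 19.0% of all promoters, its full palindrome in 0.00913%, the E-box CACGTG in 7.15%, an NF-kB site in 0.155% and the CRE TGACGTCA in 1.79%; these letters were in none of the 6 members' windows. The palindrome contains AGAACA, and overlaps between other motifs were not checked. GC content was 67.7% in Aif1l, with 29 CpG dinucleotides, 59.7% in Ston2, with 8, and 64.0% in Rom1, with 18, against a median of 52.7% and 7 CpG dinucleotides over all promoters. Of the windows not shown, Mboat1 had 74.3%, with 29, and Myom3 61.3%, with 6. The 3 of Prr5l had 54.7%, 43.0% and 50.3%, with 11, 2 and 3. These are matches of letters and show no binding.

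Each array had 62976 spots, 3671 of them controls, and between 48.0% and 65.4% of the other spots were well above background. The 75th percentile of the log2 signal, which sets array brightness, was 8.22 ± 0.61 in susceptible mice (SD, n = 6), 8.03 ± 0.12 in resilient mice (n = 3) and 7.82 ± 0.71 in naive mice (n = 5), and it was subtracted from each array. There were 3 slides and 2 scan days. Every group was on slides 1 and 2, whereas slide 3, which had its own scan day, carried only susceptible 5 and 6 and naive 4 and 5. Row 2 of each slide held the defeated mice and row 1 the naive mice, so an effect of the row and an effect of defeat cannot be told apart. Excitatory neuron markers, which should be present in this tissue, were tested for 8 of 8 genes. Arrays correlated with each other at 0.957 to 0.995 over genes. Precision is limited by the number of arrays.

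Values below are log2 signal minus the array's 75th percentile, so 0 is the brightness of that percentile; levels of different genes come from different probes and are not compared. Differences are log2, with the standard error (SE) of a limma fit of all 14 arrays.

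**Figure D1:**
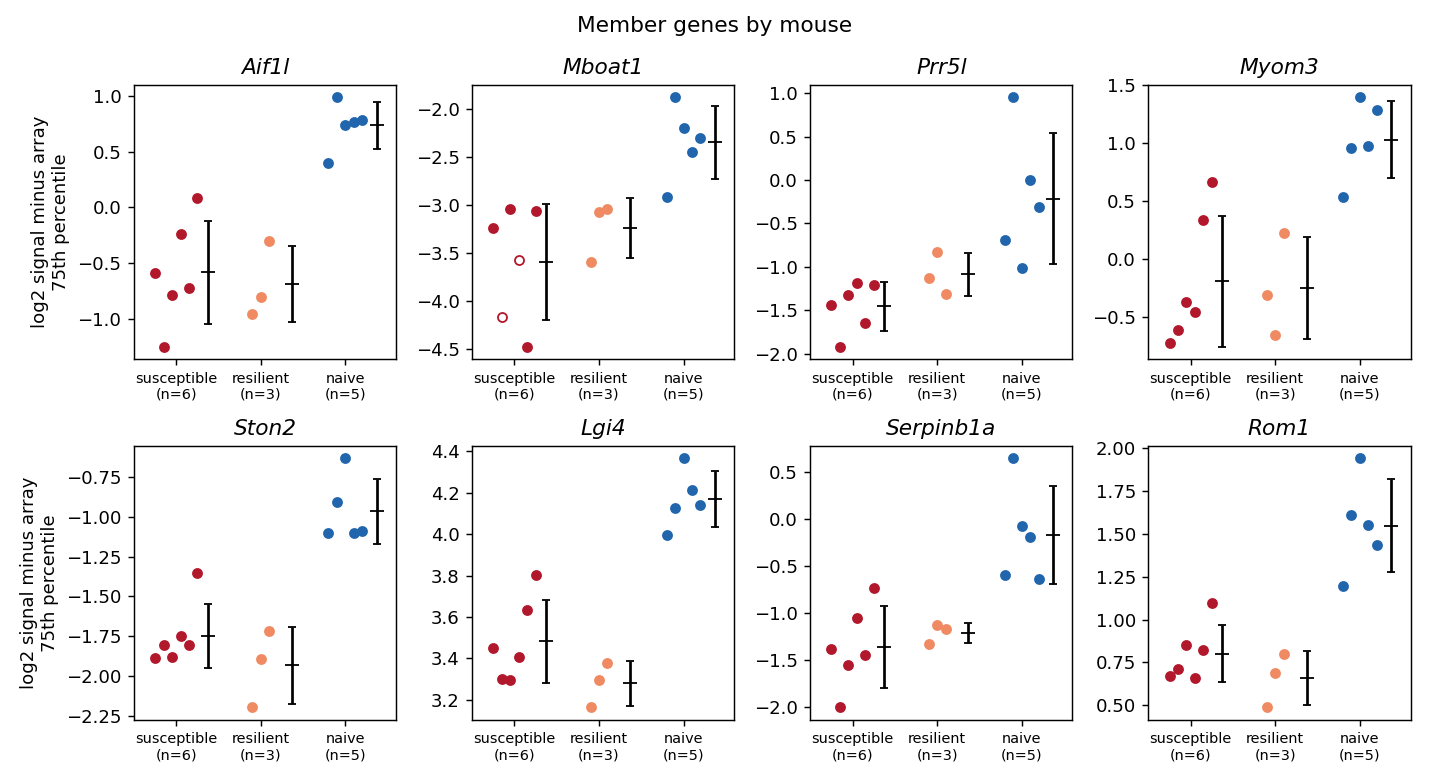
Level of each member gene by mouse (log2 signal minus the array's 75th percentile, vertical axis, a separate scale per gene) in susceptible, resilient and naive mice; points are mice, open points lie on arrays where the probe was not well above background, and bars are mean ± SD. Naive mice lie above susceptible mice in 7 of 8 genes without overlap, the exception being Myom3, against 1.64% of all genes. The members were chosen by this contrast.

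Among the genes of cytoskeleton and filaments, Aif1l ranged from a lowest -1.25 through a median of -0.66 to a highest 0.09 in susceptible mice, and was -0.96, -0.80 and -0.31 in resilient mice, against 0.40, 0.99, 0.74, 0.77 and 0.79 in naive mice. All defeated mice lay below all naive mice. The difference from naive mice was -1.32 ± 0.21 (SE) for susceptible mice, so that naive mice had 2.49 times their signal, and -1.43 ± 0.25 for resilient mice. Myom3 had its lowest value of -0.73, median of -0.42 and highest of 0.67 in susceptible mice and values of -0.32, -0.66 and 0.22 in resilient mice, against 0.54, 0.96, 1.40, 0.97 and 1.29 in naive mice. Susceptible 6, at 0.67, lay above naive 1, at 0.54, and the other susceptible mice and all resilient mice lay below every naive mouse. The differences were -1.23 ± 0.26 for susceptible and -1.28 ± 0.31 for resilient mice.

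Of the genes of lipid remodelling and kinase signalling, Mboat1 spanned -4.47, -3.40 and -3.05 in susceptible mice (lowest, median, highest) and measured -3.60, -3.07 and -3.04 in resilient mice, against -2.91, -1.88, -2.20, -2.45 and -2.30 in naive mice. It was a dim probe, well above background in 4 of 6 susceptible, 3 of 3 resilient and 5 of 5 naive mice, and the groups did not overlap. The differences were -1.24 ± 0.26 in susceptible and -0.89 ± 0.32 in resilient mice. Prr5l was -1.92, -1.38 and -1.18 at its lowest, median and highest in susceptible mice and -1.13, -0.83 and -1.31 in resilient mice, against -0.70, 0.95, -1.02, 0.00 and -0.31 in naive mice. No susceptible mouse reached a naive value, while resilient 2, at -0.83, lay above naive 3, at -1.02. The naive mice spread widely, and naive 2 was the highest. The differences were -1.24 ± 0.28 for susceptible and -0.87 ± 0.33 for resilient mice, and without naive 2 they were -0.95 and -0.58. A second Prr5l probe, for another transcript, gave -1.10 and -0.65, with 5 of 6 susceptible mice well above background.

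Among the genes of vesicle trafficking and membrane, Ston2 ranged over -1.89, -1.81 and -1.35 in susceptible mice (lowest, median, highest) and was -2.20, -1.89 and -1.71 in resilient mice, against -1.10, -0.90, -0.63, -1.10 and -1.09 in naive mice. Defeated and naive mice did not overlap, with susceptible 6 the nearest to the naive values. The differences were -0.78 ± 0.13 in susceptible and -0.97 ± 0.15 in resilient mice. A second Ston2 probe gave -0.35 and -0.31 and rose above background on fewer arrays, 5 of 6 in susceptible mice and 3 of 5 in naive mice, so the 2 probes disagree in size. Rom1 had 0.659, 0.767 and 1.095 as its lowest, median and highest in susceptible mice and 0.49, 0.69 and 0.80 in resilient mice, against 1.20, 1.61, 1.94, 1.55 and 1.43 in naive mice. Again no defeated mouse reached a naive value, and the differences were -0.75 ± 0.13 and -0.89 ± 0.15.

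The secreted ligand gene Lgi4 ranged from 3.30 through a median of 3.43 to 3.81 in susceptible mice and measured 3.16, 3.29 and 3.38 in resilient mice, against 3.99, 4.13, 4.37, 4.21 and 4.14 in naive mice. The defeated mice lay below every naive mouse, with differences of -0.69 ± 0.11 for susceptible mice and -0.89 ± 0.13 for resilient mice. The protease inhibitor gene Serpinb1a spanned -2.00, -1.41 and -0.73 in susceptible mice (lowest, median, highest) and measured -1.33, -1.12 and -1.17 in resilient mice, against -0.59, 0.65, -0.07, -0.19 and -0.63 in naive mice. The groups did not overlap, although susceptible 6 came close to naive 5. Serpinb1a differed by -1.19 ± 0.24 in susceptible and -1.04 ± 0.29 in resilient mice, and by -0.98 and -0.83 without naive 2, its highest naive value.

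All 8 members were past the threshold (limma, adjusted p under 0.05) as lower in susceptible than in naive mice, where 0.962% of all genes were called lower and 2.6% in either direction. In resilient mice 4 of 8 (Aif1l, Ston2, Lgi4 and Rom1) were past it, where 0.0623% were called lower and 0.152% in either direction. Under several other settings given at the end, and without some single mice, no gene was called in resilient against naive mice. The calls of Aif1l, Ston2, Lgi4 and Rom1 were lost there too. In susceptible against naive mice far fewer genes were called under some of those settings and without some single mice. Which member calls in susceptible mice were lost there is not given. Susceptible values lay below all naive values in 7 of 8 genes, against 1.64% of genes lower without overlap, and resilient values did so in 7 of 8, against 6.42%. All defeated mice lay below all naive mice in 1.16% of all genes, the share to set beside the separations given gene by gene. Since these contrasts chose the members, nothing is read from these counts. The 9 genes called lower in both comparisons make up 0.0623% of genes, and both comparisons share the naive mice. Median differences over all genes were 0.02 in each.

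Susceptible and resilient mice were compared to ask whether members differed with the behavioural class, a contrast the choice did not use directly, though members low in both classes were sought. None of the 8 passed the test (limma, adjusted p = 1.00 for each), and no gene of the 14445 did, so percent called was 0, with 108 genes (0.748%) at an unadjusted p under 0.05. The smallest unadjusted p among the members was 0.128, for Lgi4, whose difference was 0.20 ± 0.13 (SE, n = 6 and 3) with a 95% interval of -0.07 to 0.47. The difference was 0.11 ± 0.24 for Aif1l (-0.40 to 0.62), 0.06 ± 0.30 for Myom3 (-0.58 to 0.70), 0.19 ± 0.15 for Ston2 (-0.13 to 0.51) and 0.14 ± 0.15 for Rom1 (-0.17 to 0.46). It was -0.35 ± 0.31 for Mboat1 (-1.01 to 0.31), -0.37 ± 0.32 for Prr5l (-1.05 to 0.32) and -0.15 ± 0.28 for Serpinb1a (-0.74 to 0.44). The groups overlapped in 8 of 8 genes, as they did in nearly all genes, since 0.623% of genes did not overlap in this comparison. The intervals leave room for differences of about 1 on the log2 scale for Mboat1 and Prr5l. Those of Lgi4, Rom1 and Ston2 reach 0.47, 0.46 and 0.51. A similar level in both classes was therefore not shown.

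**Figure D2:**
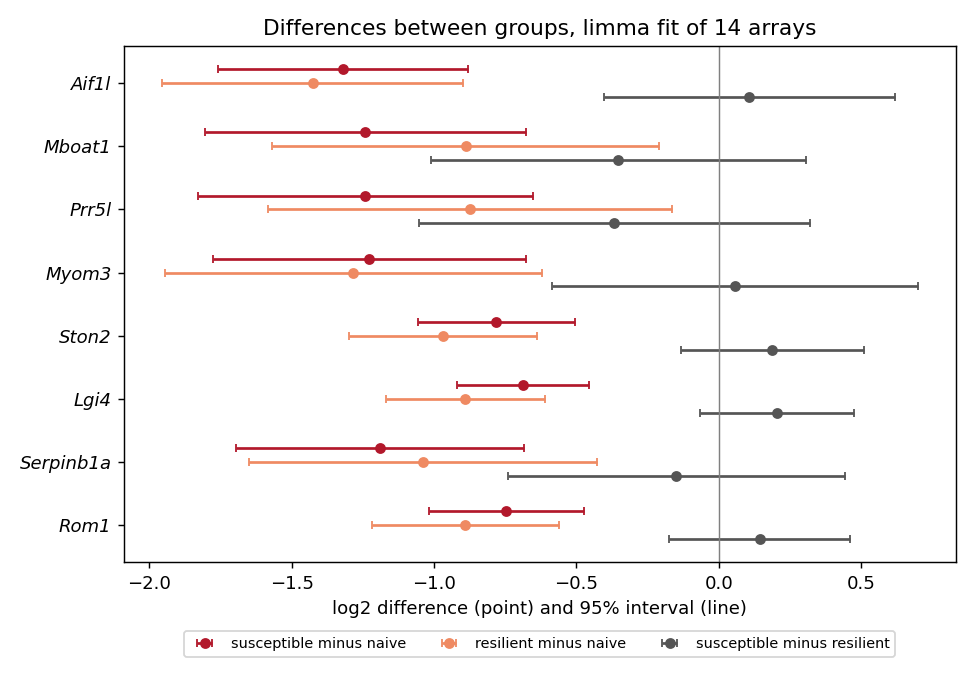
Differences of each member gene between groups (log2, horizontal axis; points are the limma estimate, lines the 95% interval) for susceptible minus naive, resilient minus naive and susceptible minus resilient. All differences from naive mice lie below 0 and all intervals of susceptible minus resilient include 0.

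Within slides, all 8 members were lower in defeated than in naive mice on every slide that held both. The same values chose the members, so this is a description and nothing is read from the count. Susceptible minus naive had a median over the members of -0.88 on slide 1, -1.24 on slide 2 and -0.65 on slide 3, where 40.8%, 51.1% and 45.2% of all genes were lower. Resilient minus naive had medians of -0.70 and -0.99 on slides 1 and 2, where 42.3% and 49.0% of all genes were lower. Prr5l showed the widest gap between slides in resilient mice, at -0.28 on slide 1 and -1.28 on slide 2. Slide 1 held only 1 naive mouse and slide 2 only 1 resilient mouse, so these differences rest on single mice. Between susceptible and resilient mice, 5 of 8 members were lower on slide 1 and 7 of 8 on slide 2, each with a median of -0.11, where 47.8% and 53.1% of all genes were lower.

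**Figure D3:**
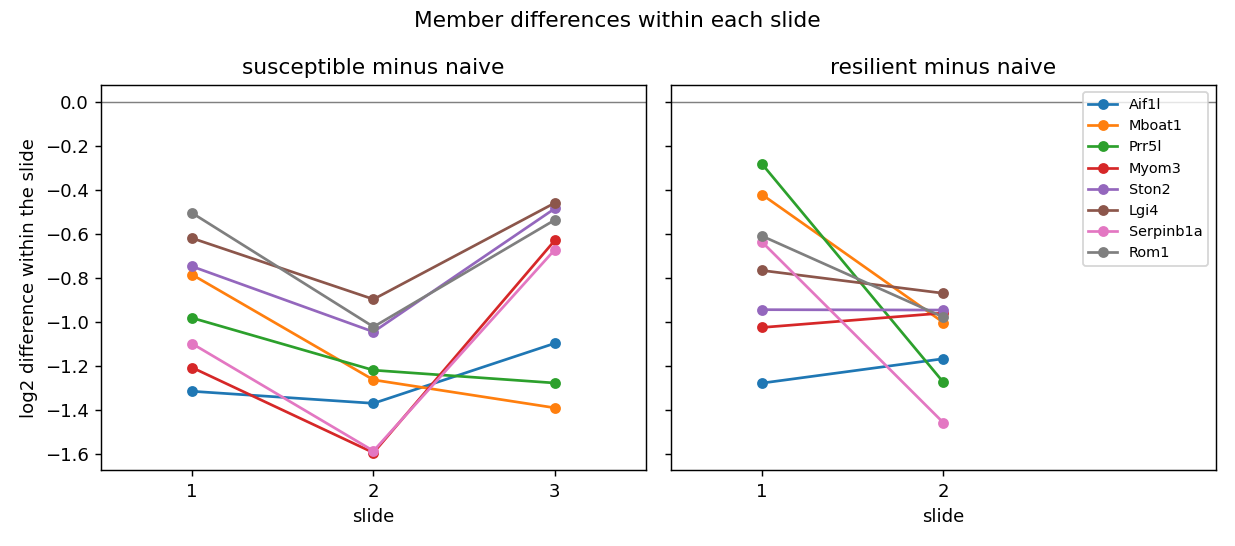
Difference of each member gene from naive mice within each slide (log2, vertical axis) for susceptible (left, slides 1 to 3) and resilient mice (right, slides 1 and 2); lines join the points of a gene. Every point lies below 0.

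In several mice all members lay on the same side of their group's mean. Naive 1, susceptible 2 and resilient 1 lay below their group's mean for 8 of 8 members, and susceptible 6 lay above it for 8 of 8, by a median of 0.46. Over all genes those mice's median deviations were -0.07, 0.01, 0.01 and 0.01 in the same order. Naive 2 deviated most in Prr5l, by 1.16, and in Serpinb1a, by 0.82.

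**Figure D4:**
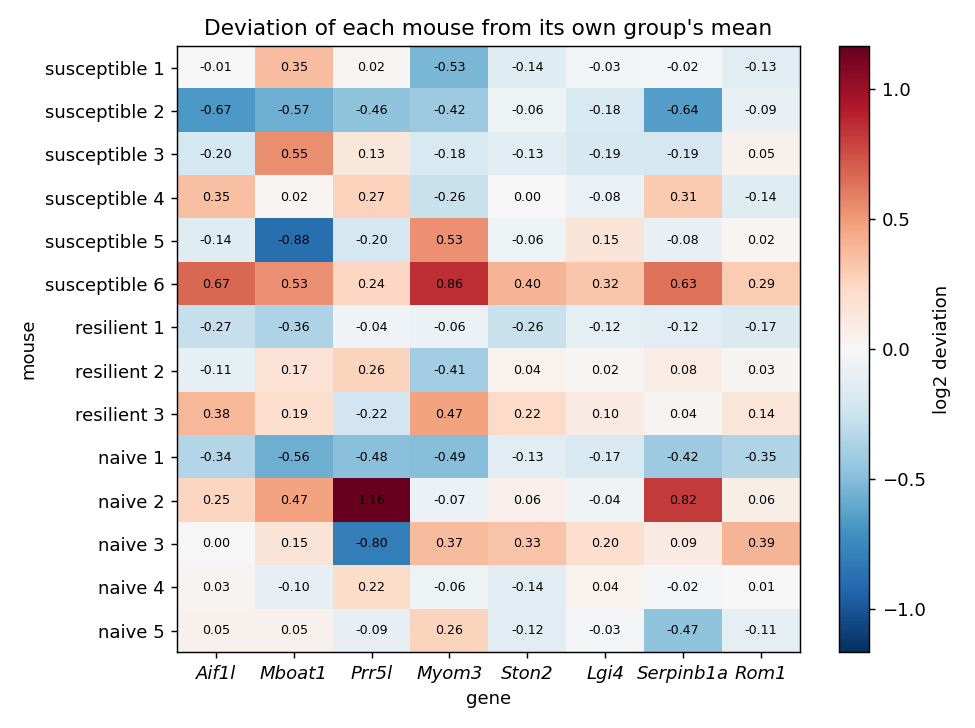
Deviation of each mouse from its own group's mean (log2, colour and printed values) for the 8 member genes, with mice in rows, susceptible at the top, then resilient and naive. Susceptible 6 is above its mean, and naive 1, susceptible 2 and resilient 1 are below theirs, in all 8 genes.

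The genes whose pattern over the 14 arrays was nearest to each member were found by the root mean square difference after centring, a measure that includes the group pattern. Ston2 was nearest to Rom1 (0.110), Lgi4 (0.126) and S100a16 (0.134), and Rom1 to Gt(ROSA)26Sor (0.108), Ston2 (0.110) and S100b (0.114). Lgi4 was nearest to Kcne1l (0.0924), Mical1 (0.104) and S100a16 (0.119), and Aif1l to Cdc42ep1 (0.253), Serpinb1a (0.278) and Fgfrl1 (0.279). Prr5l was nearest to Evi2a (0.276), Pllp (0.309) and Serpinb1a (0.341), Serpinb1a to Gng11 (0.271), Aif1l (0.278) and Aspa (0.280), Mboat1 to Aspa (0.327), Ushbp1 (0.350) and Cdc42ep1 (0.367), and Myom3 to Fabp7 (0.215), Nkd1 (0.260) and Car8 (0.282).

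Relatives of the members were counted in lists fixed with earlier results of these data known. Beside Aif1l, 0 of 6 allograft inflammatory factor relatives and actin bundlers passed in susceptible against naive mice (limma, 3 at an unadjusted p under 0.05): Aif1 differed by -0.61 ± 0.16 (adjusted p = 0.0550) and Fscn1 by 0.53 ± 0.18 (adjusted p = 0.102). Of 11 lysophospholipid acyltransferases around Mboat1, 0 passed (3 at an unadjusted p under 0.05), with Agpat4 at 0.25 ± 0.08 and Agpat3 at -0.23 ± 0.09. Of 11 subunits and substrates of mTOR complex 2 around Prr5l, 0 passed (3 unadjusted), with Akt2 at -0.40 ± 0.13 and Rictor at 0.35 ± 0.12. Of the M-band genes around Myom3, only 2 of 8 were tested, and 0 passed (1 unadjusted), with Myom2 at 0.53 ± 0.16 and Obsl1 at -0.06 ± 0.20. In resilient against naive mice 0 genes of the members' lists passed (limma without a block, 0 to 8 genes of a list at an unadjusted p under 0.05). With slide as a block 4 of their 84 genes were higher and 0 lower, and with scan day as a block 11 were higher and 4 lower. In susceptible against naive mice the same lists had 2 higher and 2 lower without a block, 13 and 5 with slide, and 14 and 6 with scan day.

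The endocytosis genes around Ston2, which work with the clathrin adaptor AP2, mostly had differences above 0. Of 19 tested, 1 was lower in susceptible mice, and the list's median was 0.23 (0.25 in resilient mice), while 0 passed (limma, 6 at an unadjusted p under 0.05); Synj1 stood at 0.60 ± 0.18 and Dnm1 at 0.28 ± 0.09. Of 6 LGI and ADAM genes around Lgi4, 1 rose: Lgi1, a secreted ligand of neuronal ADAM22 linked to epilepsy, by 0.68 ± 0.14 (adjusted p = 0.0312), and the list's median was 0.17. In this LGI and ADAM list 3 genes were higher and 0 lower at an unadjusted p under 0.05 (limma). Among 21 tetraspanins around Rom1, 1 rose and 2 fell: Tspan33 by 0.44 ± 0.10 (adjusted p = 0.0411), Cd82 by 0.53 ± 0.12 (adjusted p = 0.0383) and Cd63, a late endosome and lysosome membrane protein, by 0.67 ± 0.16 (adjusted p = 0.0431), with a median of -0.15. At an unadjusted p under 0.05 (limma), 3 tetraspanins were higher and 7 lower, and 15 of 21 had differences below 0. Around Serpinb1a, 8 genes were tested, clade B serpins, neutrophil proteases and the clade A serpin Serpina3n, and 0 passed (limma). The 1 gene at an unadjusted p under 0.05 was Serpina3n, at 1.20 ± 0.40, and the protease gene Elane stood at -0.29 ± 0.16. Over all genes the median was 0.02, with 1.64% called higher and 0.962% lower in susceptible mice, and 0.09% higher in resilient mice; 24% and 20.3% of all genes had an unadjusted p under 0.05 in susceptible and in resilient against naive mice, against which the unadjusted counts are to be read.

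Some cell type marker lists had lower levels in defeated mice, as the members did, and others did not; their part in the result was not tested. Astrocyte markers were lower in 11 of 13 genes in susceptible mice (median -0.27) and 11 of 13 in resilient mice (median -0.34); 2 fell in susceptible mice, Aldoc, an astrocyte glycolytic enzyme, by 0.53 ± 0.11 (adjusted p = 0.0311) and S100b by 0.64 ± 0.16 (adjusted p = 0.0490). With quantile normalisation neither passed, Aldoc at -0.15 (limma adjusted p = 0.539) and S100b at -0.51 (adjusted p = 0.0595), and S100b did not pass in the authors' deposited values either (adjusted p = 0.0531). The summed linear signal of the astrocyte markers (75th percentile set to 1) was 520 to 642 in susceptible mice and 518 to 596 in resilient mice, against 698 to 891 in naive mice, without overlap. Bright probes weigh most in such a sum, Aldoc above all, with a mean log2 level of 9.13 in naive and 8.61 in susceptible mice. The mean log2 level of the 13 genes overlapped between susceptible and naive mice. It was 3.33 to 3.80 in susceptible mice and 3.25 to 3.53 in resilient mice, against 3.57 to 3.88 in naive mice. Oligodendrocyte markers were lower in 12 of 13 genes in susceptible mice (median -0.55; -0.14 in resilient mice); Aspa, which breaks down N-acetylaspartate, fell by 1.06 ± 0.24. Their summed signal was 68.0 to 124 in susceptible mice and 88.9 to 141 in resilient mice, against 83.1 to 263 in naive mice, of which naive 2, highest in Prr5l and Serpinb1a, gave the 263. Meningeal fibroblast markers were lower in 10 of 10 genes (medians -1.06 and -1.12), with 0 past the threshold (limma, 3 and 2 at an unadjusted p under 0.05), and summed to 7.10 to 38.0 in susceptible mice and 8.33 to 40.8 in resilient mice, against 18.0 to 54.6 in naive mice. Endothelial markers were lower in 8 of 10 genes in susceptible mice (median -0.30) and 7 of 10 in resilient mice (median -0.35), and Slco1a4, a transporter of the blood-brain barrier, fell in susceptible mice by 0.73 ± 0.16. Of 7 neutrophil genes (median 0.29 in susceptible and 0.22 in resilient mice) 2 rose in susceptible mice, the calprotectin subunits S100a8 and S100a9. S100a9 rose by 3.53 ± 0.64 and exceeded background on 4 of 5 naive arrays. S100a8 exceeded background on 5 of 6 susceptible, 3 of 3 resilient and 0 of 5 naive arrays, so only the resilient group brought it into the test. With naive values raised to at least the lowest signal well above background on their array, its susceptible mean was 4.82-fold higher. That mean includes a susceptible array where S100a8 was not above background, so 4.82-fold is not a strict lower bound. With normexp background correction the log2 difference was 1.20. The adjusted p of S100a8, 0.0148 (limma), belongs to the values as measured, with a log2 difference of 4.06, and not to the 4.82-fold figure. The remaining lists had 0 genes past the threshold (limma): perivascular macrophage markers had medians of -1.15 in susceptible and -1.08 in resilient mice (2 of 4 genes at an unadjusted p under 0.05 in susceptible mice), pericyte or smooth muscle markers -0.56 and -0.37 (4 of 8), excitatory neuron markers -0.21 and -0.18 (3 of 8) and microglia markers -0.0111 and -0.20 (1 of 10). Medians were above 0 for inhibitory neuron markers, at 0.25 and 0.26 (4 of 8), erythroid genes, at 1.59 and 0.87 (4 of 5), and oligodendrocyte precursor markers, at 0.00256 and 0.15 (1 of 9). In resilient against naive mice 0 of 105 markers passed without a block (limma), 1 higher and 1 lower with slide as a block, and 2 higher and 5 lower with scan day. The 105 are list entries, and Cspg4 is counted in both the precursor and the pericyte list. In susceptible against naive mice 2 markers were higher and 4 lower without a block, 8 and 15 with slide, and 7 and 16 with scan day. In susceptible mice, 6 astrocyte and 4 oligodendrocyte markers were lower and 0 higher at an unadjusted p under 0.05 (limma). By the same measure 1 endothelial marker was higher and 4 lower, and 3 neutrophil genes were higher and 0 lower. The perivascular macrophage marker Cd163 was never well above background.

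Most calls among relatives and markers were lost without single mice. Those of Aldoc, S100b, Aspa, Slco1a4, Lgi1, Tspan33, Cd82 and Cd63 were lost when naive 2, naive 3 or susceptible 1, 2, 4 or 5 was left out, with the highest adjusted p of each between 0.0686 and 0.111. Leaving out naive 4, susceptible 3 or resilient 1 lost all of these but Aldoc and Lgi1, resilient 2 lost Cd63, S100b and Tspan33, naive 1 lost Slco1a4, naive 5 lost Tspan33 and resilient 3 lost S100b. S100a9 was lost without susceptible 1 (adjusted p = 0.0565). Other settings ended calls too. Quantile normalisation lost Aldoc, S100b and Cd63 (adjusted p = 0.0577), and the mean of a gene's probes lost Cd82, at -0.28 (adjusted p = 0.479). Normexp background correction lost Aspa, at -0.67, S100b, Slco1a4, Cd82, Cd63 and S100a8, at 1.20 (adjusted p = 0.0780), and brought S100a9, still past the threshold, to 2.27. The calls of Aldoc, S100b, Aspa, Slco1a4, Lgi1, Tspan33, Cd82 and Cd63 were also lost without a filter on dim probes, as was that of S100a9, and with only the 2 groups compared; a filter of at least 3 arrays lost Cd63 and S100b.

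**Figure D5:**
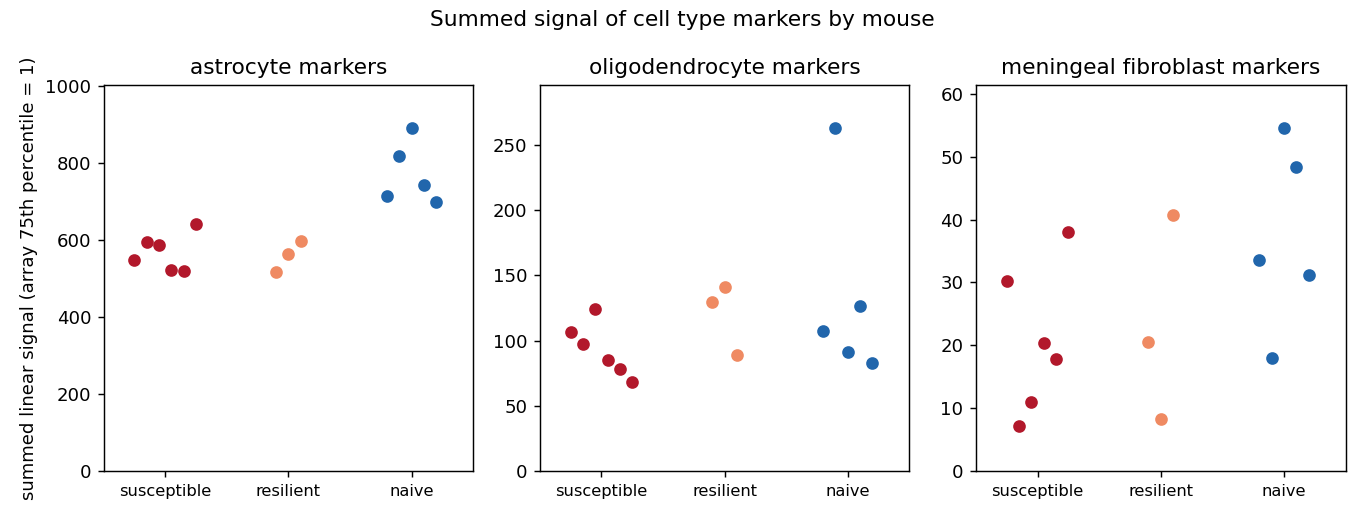
Summed linear signal (array's 75th percentile set to 1, vertical axis from 0) of astrocyte, oligodendrocyte and meningeal fibroblast markers in susceptible, resilient and naive mice; each point is a mouse. Astrocyte sums, in which Aldoc weighs most, are 698 to 891 in naive mice, above all defeated mice. The mean log2 level of the same markers overlaps between susceptible and naive mice, and the other sums overlap.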

How the data were processed

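Arrays were Agilent 1-colour arrays of 14 mice, grouped by the labels. Per the file headers and the submitters' processing notes, images were read with Agilent Feature Extraction 11.0.1.1, and the deposited intensity of a spot is linear, background-subtracted and unscaled between arrays. The authors' deposited value table holds log2 values of the same arrays, and differed from log2 signal by 1 constant per array, which puts the 75th percentile over its probes at 0, with column medians of -3.09 to -2.74 and no centring of genes.

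Control spots and outlier spots (104 to 184 per array) were left out, spots of a probe were averaged on the log2 scale, and each array's 75th percentile over non-control spots was subtracted. To be tested, a probe had to be well above background throughout 1 or more groups. Genes were named by RefSeq accession (GRCm38.p6 names only, since the headers give another build; 27509 of 55681 probes named), and the brightest probe stood for a gene; 5 genes without a usable spot were left out. The comparisons used limma 3.58.1 (R 4.3.3), a single fit of the 3 groups without covariates, with Benjamini-Hochberg adjustment over 14445 genes. The mice are separate animals. The pipeline was tested on simulated data. Named genes were the 8 members, the 3 genes nearest to each, and of each list up to 4 past the threshold or, if none, the 2 with the smallest p. The members and lists were chosen with earlier results of these data known. Alternatives were other normalisations, filters and probe rules, blocks, array brightness, trend and robust settings, the groups compared alone, and leaving out each mouse.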

Additional observations from a re-analysis of the deposited data

Results flagged for a closer look

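Ston2 in susceptible 6 stood apart from the other susceptible mice, at -1.35 against -1.89 to -1.75 in the rest (log2 signal minus the array's 75th percentile), with a gap of 0.737 of the group's whole range, above Dixon's critical value of 0.625 for 6 mice. It was 1 of 16 groups of member values examined, and chance marks about 1 in 20. Susceptible 6 lay above its group's mean for 8 of 8 members.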

How the results depend on the processing

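The members stayed lower than naive mice in 103 of 103 results under other settings and 112 of 112 without 1 mouse in each comparison. These refits reuse the values that chose the members, so the counts were largely set in advance and nothing is read from them. Sizes moved under normexp (an offset of 50, which by construction shrinks differences of dim probes): Mboat1 -0.68, Prr5l -0.81 and Ston2 -0.46 for susceptible, and Ston2 -0.55, Mboat1 -0.44 and Prr5l -0.60 for resilient mice. The other members also had smaller susceptible differences under normexp. These were -1.03 for Aif1l, -0.93 for Myom3, -0.83 for Serpinb1a, -0.62 for Rom1 and -0.57 for Lgi4. With the mean of a gene's probes Ston2 was -0.57 and -0.64. Genes called in susceptible against naive mice (376) became 583 with quantile normalisation, 112 with normexp, 35 without the filter, 2211 with slide and 2500 with scan day as a block, 1452 with array brightness and 66 with only these groups. Those in resilient against naive mice (22) became 40 with quantile normalisation, 0 with normexp (2151 at an unadjusted p under 0.05), 0 without the filter (2941), 0 with a filter of at least 3 arrays (2994), 510 with slide, 1461 with scan day, 1103 with array brightness, 0 with only these groups (2548) and 63 with trend and robust settings. Without 1 mouse the counts ranged from 27 (without susceptible 1) to 868 (without susceptible 6) in susceptible (43, 138, 67 and 62 without susceptible 2, 3, 4 and 5, and 235, 59, 57, 148 and 581 without naive 1 to 5, and 217 and 240 without resilient 1 and 2) and from 0 to 76 (without susceptible 6) in resilient against naive mice, with 1 without naive 4 or resilient 1, 2 without resilient 2, 6 without susceptible 2, and 0 without naive 2 or 3, susceptible 1, 3 or 5 or resilient 3 (limma, 2508 to 2911 at an unadjusted p under 0.05). Between susceptible and resilient mice the count was 0, except 1 without resilient 1 (range 0 to 1). The replicate block gave 1712 and 726 calls, and the numbers pair no animals. Deviations from the group mean correlated at -0.38 to 0.71 between same-numbered mice. Mice of different numbers were not compared in this way, so nothing is read from these calls. Aif1l, susceptible minus resilient, turned to -0.0666 with slide, -0.12 with the replicate block, -0.0265 without susceptible 6 and -0.0274 without resilient 1 (range without 1 mouse -0.0274 to 0.30). Myom3 turned to -0.25 with slide, -0.15 with scan day, -0.25 with the replicate block, -0.0177 with brightness, and -0.0491, -0.12 and -0.15 without susceptible 5, susceptible 6 and resilient 2 (range without 1 mouse -0.15 to 0.29). The cause was not tested. Signal over background limits Mboat1 and the second probes of Prr5l and Ston2. Mboat1 had no value under the filter on all 14 arrays.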
